A study of Mus musculus with 6 samples.

Results

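RNA-seq counts were examined for 44 genes of the nonmuscle actin cytoskeleton, out of 22063 genes in the table. They were picked by gene symbol and code for the cytoplasmic actins, the proteins that bundle, cap, move and turn over actin filaments, their upstream regulators, and serum response factor (SRF) with its cofactors. RNA came from cultured primary cardiac fibroblasts of mice homozygous for a floxed Tet3 allele (Tet3 f/f), a gene for a dioxygenase that oxidises 5-methylcytosine in DNA. The GFP group (3 libraries, genotype label Control) received the adenovirus Ad-GFP and the CRE group (3 libraries, genotype label Tet3 knockout) received Ad-Cre, a virus that delivers Cre recombinase. By the names of the vectors, both used the CMV promoter, which is not restricted to fibroblasts, and the Cre vector coded for EGFP as well. Both groups carried the floxed allele, an adenovirus and TGF-β treatment, and no library of untreated or uninfected cells was analysed here, so the comparison is CRE with GFP under TGF-β alone. Cre itself and the loss of Tet3 cannot be told apart in this design, the age of the mice is not in the labels, and the labels do not say whether libraries 1 to 3 of a group were separate cultures. The study calls the replicates of this set of experiments biological, without saying whether cultures or animals were separate. The p-values measure the spread between these 6 libraries, which may be in part technical.

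Actin cycles between monomers and filaments. Cofilins and profilin drive that cycle, tropomyosins, calponins and caldesmon decorate the filament, filamin and α-actinins crosslink it, and nonmuscle myosin II pulls on it after its light chain is phosphorylated. Formins promote assembly, LIM kinases slow filament breakdown, and ROCK kinases act on LIM kinases and raise myosin activity. Monomeric actin holds the SRF cofactors MRTF-A and MRTF-B in the cytoplasm, so that assembly frees them to join SRF on the CArG box, a short promoter element found in many actin and contractile genes, and this loop is a known part of the change from fibroblast to myofibroblast.

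Total counts were 17049184 to 20343590 in GFP and 17002126 to 17904145 in CRE libraries. Tet3 was counted 1044, 965 and 1000 times in GFP and 642, 649 and 637 times in CRE, and stood in CRE at 60.8% of its GFP level (log2 fold change -0.72, SE 0.08, adjusted p = 5.36e-05). A count per gene may hold transcripts that lack the deleted part, so it does not measure the share of cells that lost Tet3. The defining fibroblast markers were counted in all 6 libraries, with a summed normalised count of 29274 to 30439 CPM (counts scaled to a common library total) in GFP and 18096 to 19505 CPM in CRE, and 8 of the 9 markers passed the test as lower. Most of that sum came from Col1a1 and Col1a2, and the lowest markers in CRE were Tcf21 (9.50 to 11.2 CPM) and Thy1 (24.1 to 25.2 CPM). Sums of endothelial markers were 341 to 374 and 171 to 194 CPM, those of macrophage markers 57.7 to 65.7 and 34.0 to 37.3 CPM, and those of pericyte markers 86.1 to 92.1 and 79.1 to 94.1 CPM, in GFP and CRE respectively. Cardiomyocyte markers summed to at most 1.07 CPM, with Myh6 at 0. Genes with a count numbered 15070 to 15325 in GFP and 15623 to 15650 in CRE, and mitochondrial genes took at most 3.54% of counts in GFP and 3.71% to 3.89% in CRE. These shifts run beside every result below and their part in it was not tested. In bulk RNA, fewer cells of a type and less RNA per cell cannot be told apart.

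Most of the cytoskeletal genes were lower in CRE than in GFP, but by small amounts. Of 43 members with enough counts to test, 27 (62.8%) were lower and 7 (16.3%) higher at an adjusted p under 0.05, against 25.7% and 25.5% of all 12862 tested genes, and 9 did not pass. The member left out, Myocd, had 5 to 10 counts in every library. The median log2 fold change (CRE over GFP) was -0.19 over the members and 0.0052 over all tested genes. By role, 20 of the 26 genes of filaments and their adaptors were lower and 0 higher (median -0.30). With library size alone 13 were lower and 2 higher, against 16.2% and 42.9% of all tested genes. Over the 44 members, the 3 CRE libraries lay below the 3 GFP libraries for 28 and above them for 8, against 29.6% and 30% of tested genes. With library size alone these were 17 and 10, against 18% and 46.5%. At an adjusted p under 0.01 on the TMM scale, 22 members were lower and 6 higher, against 19.3% and 17.6% of tested genes.

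The number of lower genes depended on how the libraries were put on one scale. TMM factors, which assume that most genes do not change, were 0.944 to 0.947 in GFP and 1.05 to 1.06 in CRE. With library size alone the median of all genes moved to 0.17 and that of the members to -0.029, and 15 members (34.9%) were then lower and 10 (23.3%) higher, against 16.2% and 42.9% of all tested genes. On the log2(FPKM + 1) scale 15 were lower and 9 higher, against 14.9% and 38.7%. The genes that stayed lower at 0.05 in every other processing tried, with each library left out in turn included, were 15: Actn1, Flna, Cnn2, Cnn3, Tpm2, Mylk, Csrp1, Csrp2, Pdlim5, Fhl1, Fhl2, Synpo, Synpo2, Pfn1 and Rnd3. All 7 higher genes passed at 0.05 in every processing, Diaph3 alone missing the threshold of 0.01, and 6 of them also with each library left out, Diaph3 being the exception. Library size alone and the FPKM scales moved the median gene upward. Those settings could therefore remove lower calls but hardly a higher one, and the 2 counts are not alike as checks. The remaining 12 lower genes, with log2 fold changes from -0.12 to -0.28, lay below the median gene on the TMM scale but did not pass with library size alone. Of these, Actg1, Cald1, Myh10, Cfl2 and Rhoa also lost the call without some single libraries, CRE replicates 2 and 3 among them, with adjusted p-values of up to 0.131.

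**Figure D1:**
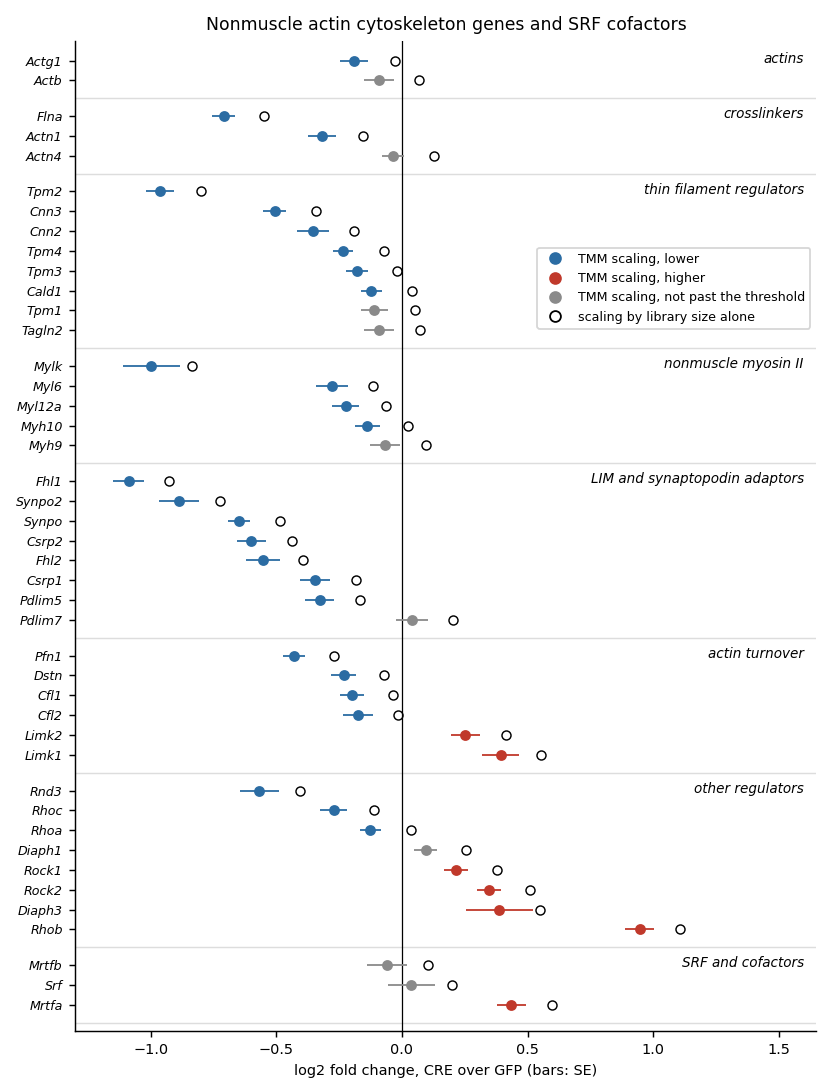
Log2 fold change of CRE over GFP (x axis) for the 43 tested members (y axis), grouped by role. Filled points are the TMM-scaled estimates with bars of 1 SE, coloured by whether they passed at an adjusted p under 0.05, and open circles are the estimates with library size alone. Every open circle lies to the right of its filled point, and genes such as Fhl1 (-1.09), Mylk (-0.997), Tpm2 (-0.96) and Rhob (0.95) keep their side of 0 on both scales.

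The CArG box was searched for by its letters in the 250 bases before the start of each gene. A box on either strand is also a box on the opposite strand, so a single search covers both, and no other motif was searched. RefSeq promoters (GRCm38.p6) were found for 38 of the 44 members and held a box in 7 of them (18.4%), against 1.62% of all 27025 genes with a promoter there. Actb, Csrp2, Diaph1, Myocd, Rock1 and Synpo had no entry. Members were brought together partly because SRF is known to act on such genes, so this share is a description of the list. The 6 members of the 7 with the largest log2 fold change are shown with up to 30 bases on each side of the box, 5′ to 3′ on the strand of the gene, and the capitals mark the box.
Fhl1 (chrX:56779551-56779620, plus strand): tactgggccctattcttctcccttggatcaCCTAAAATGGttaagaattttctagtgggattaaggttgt
Rnd3 (chr2:51149172-51149241, minus strand): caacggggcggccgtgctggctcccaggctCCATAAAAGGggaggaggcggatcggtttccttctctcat
Fhl2 (chr1:43163962-43164022, minus strand): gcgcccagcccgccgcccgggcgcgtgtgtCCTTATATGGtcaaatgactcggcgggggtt
Cnn2 (chr10:79988514-79988583, plus strand): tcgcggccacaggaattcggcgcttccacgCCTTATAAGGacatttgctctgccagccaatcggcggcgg
Myl6 (chr10:128493020-128493089, minus strand): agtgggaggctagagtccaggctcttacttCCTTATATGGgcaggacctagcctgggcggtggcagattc
Actg1 (chr11:120348546-120348615, minus strand): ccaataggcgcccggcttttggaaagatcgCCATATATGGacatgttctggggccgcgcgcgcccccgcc
The boxes begin 102 bases before the start of Fhl1, 100 before Rnd3, 31 before Fhl2, 56 before Cnn2, 50 before Myl6 and 90 before Actg1. Of these, the boxes of Rnd3, Cnn2 and Actg1 lie upstream of every GENCODE transcript of the gene, those of Fhl1 and Fhl2 lie in an intron of a longer transcript, and that of Myl6 lies in an exon of another Myl6 transcript. Fhl2 has a second RefSeq promoter with the box ccaaaaaagg, inside an annotated untranslated exon. The seventh gene, Srf itself, holds 2 boxes, which begin 82 and 62 bases before its start. Of the 7 genes with a box, 6 were lower and Srf did not pass (median log2 fold change -0.35, against 25.7% of all tested genes lower and 25.5% higher). Of the 31 tested members with a promoter entry and no box, 19 were lower, 6 higher and 6 did not pass (median -0.18). With library size alone, 4 of the 7 with a box stayed lower, as Actg1 and Myl6 lost the call, and of the 31 without a box 9 were lower and 8 higher (against 16.2% and 42.9% of all tested genes). A match in letters is not a bound site, and the absence of one says only that the letters are not in this window.

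The cytoplasmic actins, which make up the bulk of actin in a fibroblast, changed little. Actg1 was lower on the TMM scale and Actb did not pass. Actb stood at 1577, 1353 and 1420 CPM in GFP and at 1440, 1322 and 1318 CPM in CRE. The groups overlapped, and the log2 fold change of -0.092 (SE 0.061, adjusted p = 0.229) did not pass. Actg1 stood at 2505, 2176 and 2244 CPM in GFP and at 2103, 1961 and 2001 CPM in CRE. All 3 CRE libraries lay below the GFP libraries, and the fold change of -0.19 (SE 0.056, adjusted p = 0.0153) passed on the TMM scale. It was -0.029 with library size alone and did not pass there. Actg1 and Actb also had the highest levels per length of all members, at 1119 ± 82.7 and 748 ± 61.5 FPKM in GFP. The actins are near-identical in sequence and have processed pseudogenes, so reads may be divided between copies in a way the table does not show. Actb lies on chromosome 5, positions 142903115 to 142906754, and Actg1 on chromosome 11, positions 120345690 to 120348542.

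Filamin A showed the largest shift among the 3 member crosslinkers. Flna stood at 2422, 2199 and 2193 CPM in GFP and at 1417, 1361 and 1387 CPM in CRE. The 2 sets of libraries were far apart relative to their spread, and Flna, which ties filaments into a network and to integrins (ENSMUSG00000031328, chromosome X, positions 74223461 to 74249820), had a log2 fold change of -0.71 (SE 0.048, adjusted p = 1.89e-06). Actn1 (α-actinin-1), which bundles stress fibres, fell by less, with -0.32 (SE 0.057, adjusted p = 9.62e-04). Its close relative Actn4 stood at -0.036 (SE 0.046, adjusted p = 0.544) and did not pass, and with library size alone it was called higher (log2 fold change 0.13). The end of Actn4 overlaps Capn12 on the other strand, and the use of strand in counting is not stated.

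Of the 8 thin filament genes, 6 were lower and 2, Tagln2 and Tpm1, did not pass, against 25.7% of all tested genes lower. With library size alone 3 of the 8 were lower (Tpm2, Cnn2 and Cnn3), against 16.2% of all tested genes. Tpm2, the β-tropomyosin shared with muscle (ENSMUSG00000028464, chromosome 4, positions 43514711 to 43523765), changed most. Tpm2 stood at 133, 116 and 128 CPM in GFP and at 63.1, 65.8 and 64.2 CPM in CRE. The CRE libraries lay within a narrow range under all GFP libraries. The log2 fold change was -0.96 (SE 0.057, adjusted p = 8.55e-07). Cnn3 stood at 524, 511 and 511 CPM in GFP and at 378, 345 and 366 CPM in CRE. Cnn3 is acidic calponin, an actin-binding regulator of contraction (ENSMUSG00000053931, chromosome 3, positions 121426497 to 121458207). Its fold change was -0.51 (SE 0.046, adjusted p = 1.16e-05), with no overlap between the groups. The neutral calponin Cnn2 had -0.35 (SE 0.063, adjusted p = 9.68e-04). Tpm4 (-0.23), Tpm3 (-0.18) and caldesmon Cald1 (-0.12) were lower by smaller log2 fold changes, and Tpm1 (-0.11) and Tagln2 (-0.090) did not pass. The sign of Cald1, Tpm1 and Tagln2 turned with library size alone.

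Within the tropomyosins, the shares of Tpm2 and Tpm1 did not overlap between the groups. Tpm2 made up 8.25%, 7.72% and 8.32% of the summed tropomyosin FPKM in GFP and 4.58%, 5.05% and 4.76% in CRE. The share of Tpm1 was 37.0% ± 0.401 in GFP and 40.03% ± 0.894 in CRE (SD, n = 3), also without overlap. Tpm4 (40.04% and 39.8%) and Tpm3 (14.9% and 15.3%) each had overlapping groups. On counts, not per length, the share of Tpm2 differed by -2.01 points. With 3 libraries against 3, the two-sided exact permutation test cannot go below p = 0.1, which it gave for Tpm1 and Tpm2 (adjusted over 13 shares, 0.163). Shares within a family are not independent, and Tpm1 itself did not pass (log2 fold change -0.11).

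Nonmuscle myosin II has heavy chains (Myh9, Myh10), light chains (Myl6, Myl12a) and the kinase Mylk that switches it on. The kinase was the only one of these genes to change by more than 0.5 on the log2 scale. Mylk stood at 10.4, 12.1 and 10.4 CPM in GFP and at 5.53, 5.15 and 5.80 CPM in CRE. Mylk, at ENSMUSG00000022836, chromosome 16, positions 34745210 to 35002420, was thinly covered, with 168 to 214 counts in GFP and 93 to 110 in CRE, ranges that do not meet, and its log2 fold change was -0.997 (SE 0.11, adjusted p = 5.36e-05). On the log2(FPKM + 1) scale, which understates changes of low genes, the difference was -0.49. The length implied by its counts and FPKM ran from 4.73 to 7.21 kb between libraries, so its FPKM is less certain than that of most members. The gene holds a separate smooth muscle form and antisense genes overlap it, and counts per gene do not separate these. Myl6 (-0.28), Myl12a (-0.22) and Myh10 (-0.14) were lower on the TMM scale and did not pass with library size alone. Myh9, the main heavy chain, stood at -0.067 and did not pass. Myl12a overlaps its near-identical neighbour Myl12b on the same strand, so its count is uncertain.

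The LIM-domain and synaptopodin adaptors formed the group with the most lower genes, 7 of 8 on the TMM scale and with library size alone, against 25.7% and 16.2% of all tested genes. Fhl1 stood at 55.7, 57.2 and 57.5 CPM in GFP and at 28.5, 24.8 and 26.8 CPM in CRE. Fhl1, a LIM-only protein of stress fibres and of stretch sensing in muscle (ENSMUSG00000023092, chromosome X, positions 56731787 to 56793346), had the largest fall of all members, with a log2 fold change of -1.09 (SE 0.062, adjusted p = 6.70e-07). Fhl2 stood at 69.8, 65.4 and 72.4 CPM in GFP and at 50.5, 48.2 and 42.8 CPM in CRE. Fhl2 (ENSMUSG00000008136, chromosome 1, positions 43123074 to 43196984), a LIM-only partner of several transcription factors, had -0.55 (SE 0.068, adjusted p = 8.84e-05). The CRE libraries of both genes lay below all GFP libraries, and both genes carry a CArG box in the stretches printed above. Csrp2 stood at 99.8, 92.7 and 100.4 CPM in GFP and at 69.3, 62.4 and 61.7 CPM in CRE. Csrp2, a LIM protein of smooth muscle and of activated mesenchymal cells (ENSMUSG00000020186, chromosome 10, positions 110919789 to 110939622), was lower in every CRE library than in any GFP library, with -0.60 (SE 0.058, adjusted p = 1.89e-05).

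Synpo stood at 499, 499.7 and 477 CPM in GFP and at 306, 314 and 322 CPM in CRE. Synpo (synaptopodin), a stabiliser of RhoA and α-actinin bundles, was likewise separate between the groups, with a log2 fold change of -0.65 (SE 0.043, adjusted p = 1.82e-06). Synpo2 stood at 20.6, 20.3 and 19.2 CPM in GFP and at 11.1, 10.3 and 11.03 CPM in CRE. Synpo2, or myopodin, bundles actin at the Z-disc and in stress fibres (ENSMUSG00000050315, chromosome 3, positions 123076519 to 123236149), and its groups did not overlap. Its log2 fold change was -0.89 (SE 0.081, adjusted p = 1.23e-05), at a low level of 20.02 ± 0.714 CPM in GFP. Csrp1 (-0.35) and Pdlim5 (-0.33) fell by less. Pdlim7 stood at 0.039 and did not pass, and with library size alone it was called higher (0.20).

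**Figure D2:**
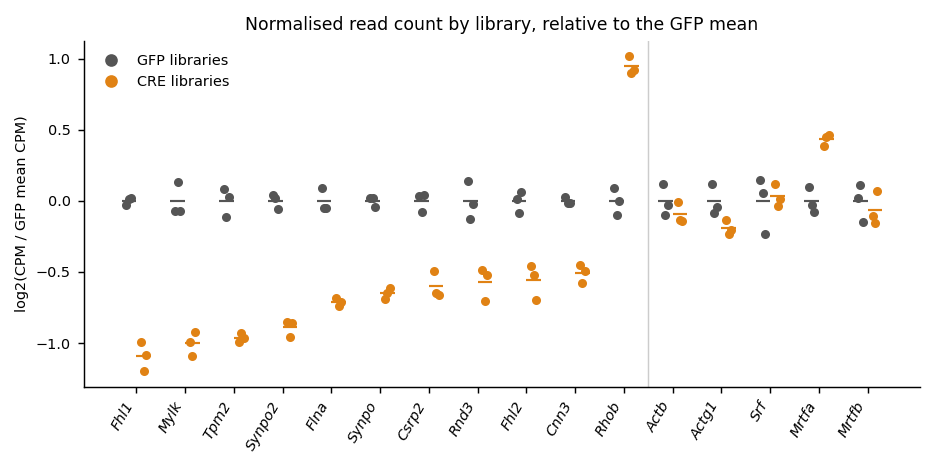
Normalised read count of each library as log2 of its CPM over the mean CPM of the GFP libraries (y axis), for the 11 members that passed with an absolute log2 fold change of at least 0.5 (left of the line) and for the actins, Srf and the MRTFs (right). Points are libraries (3 GFP, 3 CRE) and short lines are group means. The 3 CRE libraries of all 11 genes on the left lie outside the range of the GFP libraries, 10 below and Rhob above. These 11 were chosen by their difference in the same libraries, which nearly fixes that separation. Of all tested genes, 29.6% lay below and 30% above in this way. The CRE libraries of Actb, Srf and Mrtfb overlap the GFP range.

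Of the 6 turnover genes, 4 were lower and 2 higher, or 1 and 2 with library size alone, against 25.7% and 25.5%, or 16.2% and 42.9%, of all tested genes. The 4 proteins that take filaments apart or supply monomers were lower: Pfn1 (profilin 1), which loads monomers onto growing ends, had -0.43 (SE 0.043, adjusted p = 2.31e-05), and the severing proteins Dstn (-0.23), Cfl1 (-0.20) and Cfl2 (-0.18) had smaller log2 fold changes that did not pass with library size alone. The 2 LIM kinases, which switch cofilin off by phosphorylation, were higher. Limk1 had 0.39 (SE 0.074, adjusted p = 0.00136) and Limk2 had 0.25 (SE 0.058, adjusted p = 0.00446). No library of either kinase overlapped between the groups, and both passed on every scale. Within the cofilin family the shares differed by less than 1 point. Cfl1 stood at 54.7% ± 0.305 of the summed FPKM in GFP and 55.1% ± 0.186 in CRE (SD, n = 3, exact permutation p = 0.2). Dstn stood at 35.8% ± 0.142 in GFP and 35.1% ± 0.140 in CRE (SD, n = 3), with no overlap (exact permutation p = 0.1, the smallest possible, and 0.163 adjusted). Transcript levels say nothing of cofilin phosphorylation, which was not measured. Cfl1 overlaps Snx32 on the other strand.

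Rhob stood at 94.95, 83.5 and 89.4 CPM in GFP and at 181, 167 and 169 CPM in CRE. Every CRE library lay well above every GFP library. Rhob, a short-lived, inducible GTPase found on endosomes and the plasma membrane (ENSMUSG00000054364, chromosome 12, positions 8497661 to 8500009), rose by a log2 fold change of 0.95 (SE 0.057, adjusted p = 9.93e-07), the largest rise of any member. Rnd3 stood at 85.01, 70.6 and 75.9 CPM in GFP and at 55.1, 47.3 and 53.7 CPM in CRE. Rnd3, also called RhoE, is an atypical GTPase that stays bound to GTP and opposes RhoA and ROCK1 (ENSMUSG00000017144, chromosome 2, positions 51130438 to 51149111). Its CRE libraries all lay below the GFP libraries, its log2 fold change was -0.57 (SE 0.078, adjusted p = 1.81e-04), and its CArG box is printed above. Rhoc (-0.27) and Rhoa (-0.13) were lower on the TMM scale, did not pass with library size alone, and Rhoa then turned to 0.037. Rhoa overlaps Tcta and an antisense gene at its ends.

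Per length, Rhob supplied 8.06%, 7.76% and 7.88% of the summed Rhoa, Rhob and Rhoc FPKM in GFP and 16.2%, 15.7% and 15.4% in CRE. Rhoc went from 38.2% ± 0.543 to 32.7% ± 0.581 and Rhoa from 53.9% ± 0.589 to 51.5% ± 1.01 (SD, n = 3). On counts, not per length, the share of Rhoa differed by -5.60 points and that of Rhob by 9.84 points. None of these 3 shares overlapped between the groups (exact permutation p = 0.1, the smallest possible, and 0.163 adjusted), and they do not depend on how libraries were scaled. Because shares of a family sum to the whole, a rise in Rhob lowers the others, and the 3 are not separate results. Rhoa remained the most abundant of the 3 in every library.

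The ROCK kinases and diaphanous formins were higher or did not pass. Rock2 had 0.35 (SE 0.047, adjusted p = 1.61e-04) and Rock1 had 0.22 (SE 0.048, adjusted p = 0.00364), and both passed on every scale. Of the diaphanous formins, which extend filaments, Diaph1 stood at 0.095 and did not pass, although its CRE libraries all lay above the GFP libraries, and it was called higher with library size alone (0.26). Diaph3 had 0.39 (SE 0.13, adjusted p = 0.0323) at a level of 11.98 ± 2.35 CPM in GFP. It no longer passed when any library but GFP replicate 2 was left out (adjusted p = 0.0528 to 0.107).

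**Figure D3:**
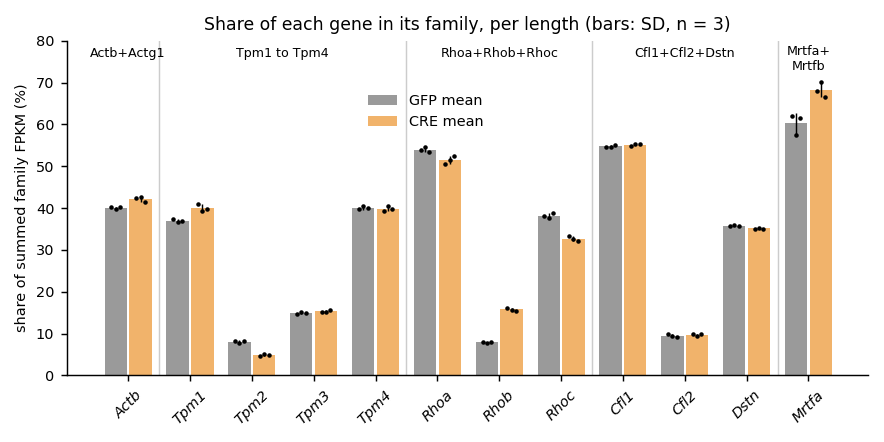
Share of each gene in the summed FPKM of its family (y axis, percent) for 5 families of members (x axis). Bars are group means with SD (n = 3 libraries) and points are libraries. Rhob went from 7.90% to 15.8% of its family and Mrtfa from 60.3% to 68.3% of the MRTF pair, while Tpm2 went from 8.09% to 4.80%.

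Srf, which binds the CArG box, did not pass the test, Mrtfa was higher, and Mrtfb did not pass. Srf stood at 30.3, 28.6 and 23.4 CPM in GFP and at 29.7, 26.7 and 27.7 CPM in CRE. The groups overlapped, with a log2 fold change of 0.037 (SE 0.094, adjusted p = 0.768). Its sign turned when GFP replicate 3 or CRE replicate 1 was left out (-0.070 and -0.0026). Mrtfa stood at 51.4, 47.04 and 45.5 CPM in GFP and at 62.7, 65.5 and 66.3 CPM in CRE. Mrtfa codes for MRTF-A (ENSMUSG00000042292, chromosome 15, positions 81012281 to 81190757). Every CRE library lay above every GFP library, and the log2 fold change was 0.44 (SE 0.057, adjusted p = 1.35e-04). Mrtfb stood at 53.9, 57.6 and 48.1 CPM in GFP and at 49.5, 47.8 and 55.8 CPM in CRE. Mrtfb, for the related MRTF-B (ENSMUSG00000009569, chromosome 16, positions 13256481 to 13417529), overlapped between the groups, at -0.060 (SE 0.078, adjusted p = 0.552). Mrtfa supplied 61.9%, 57.4% and 61.5% of the summed MRTF FPKM in GFP and 68.0%, 70.2% and 66.6% in CRE (exact permutation p = 0.1, adjusted 0.163). Mrtfa touches the end of Sgsm3 on the other strand. Myocd, the cofactor of smooth and cardiac muscle, had 6, 10 and 10 counts in GFP and 5, 5 and 6 in CRE, which was too few to test. Location in the nucleus, by which MRTFs act, was not measured.

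Genes that SRF is known to drive did not move as one set. The 6 immediate early genes of SRF with its ternary complex partners were all higher (median log2 fold change 1.82, 6 of 6, against 25.5% of all tested genes). They were Fosb (3.05), Egr1 (2.42), Egr3 (2.09), Egr2 (1.54), Fos (1.27) and Ier2 (0.84). The muscle isoforms, known targets of SRF with MRTF or myocardin, were 8 of 10 lower and 1 higher (median -0.94), against 25.7% of all tested genes lower. Myl9 (-1.78), Cnn1 (-1.56), Acta2 (-1.35) and Actg2 (-1.03) were the lowest, and Acta1, the skeletal actin, was higher (2.45, from 5 to 7 counts in GFP to 32 to 45 in CRE). The calls for these 2 lists were the same in number with library size alone. Of the ternary complex factors, Elk3 was higher (0.15), Elk1 lower (-0.39) and Elk4 did not pass (-0.13), and with library size alone Elk1 no longer passed. Ier2 and the Elk genes were named after their values were seen. A CArG box was found in 3 of the 9 muscle isoform genes with a promoter entry (Myl9, Acta1 and Actc1) and in 1 of the 3 immediate early genes with one (Egr2). The box in 3 of the 5 Egr2 promoter entries has the same 10 letters, ccatatatgg, as that of Actg1, with log2 fold changes of 1.54 for Egr2 and -0.19 for Actg1. The call of Actg1 was lost with library size alone (-0.029) and without CRE replicate 2 or 3.

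**Figure D4:**
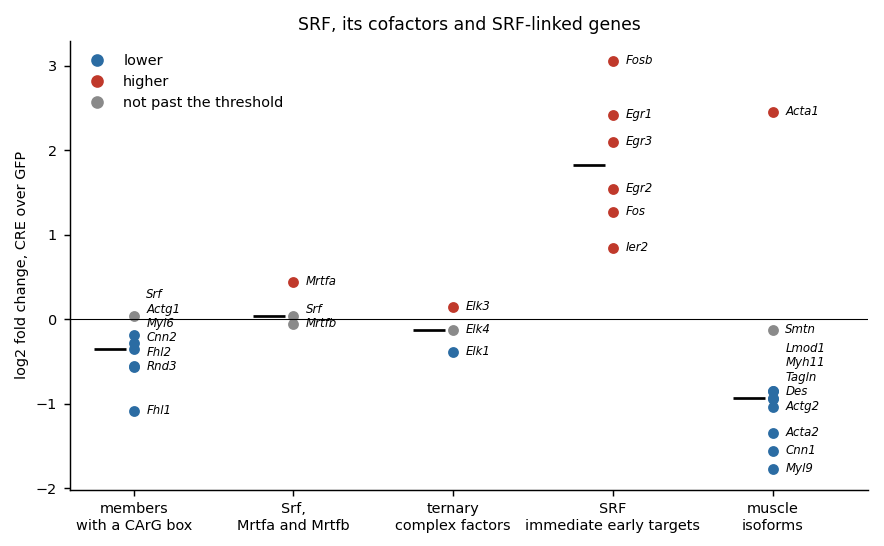
Log2 fold change of CRE over GFP (y axis, TMM scale) for the members with a CArG box, Srf with the MRTFs, and 3 lists of SRF-linked genes (x axis). Points are genes, coloured by whether they passed at an adjusted p under 0.05, and short lines are group medians. The immediate early genes lie between 0.84 and 3.05, the members with a box between -1.09 and 0.037, and the muscle isoforms between -1.78 and -0.13 apart from Acta1 at 2.45.

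In the 8 pairs compared, the nonmuscle genes changed less than their muscle counterparts in the same libraries. This was measured as the log2 ratio of counts of the muscle to the nonmuscle isoform within each library, which no scaling of libraries can alter. Since the counts are not per length, the change in a ratio is meaningful and its absolute size is not. The ratio of Acta2 to Actb was -0.17, -0.18 and -0.14 in GFP and -1.43, -1.53 and -1.33 in CRE, a difference of -1.26 (SE 0.06). The difference was -1.16 (SE 0.05) for Acta2 to Actg1. For the regulatory light chains, Myl9 to Myl12a, the ratio was -1.76, -1.85 and -1.86 in GFP and -3.45, -3.48 and -3.21 in CRE, a difference of -1.56 (SE 0.09), the largest of the 8 pairs. The calponin ratios differed by -1.22 (Cnn1 to Cnn2) and -1.07 (Cnn1 to Cnn3), the transgelin ratio (Tagln to Tagln2) by -0.84, and the myosin heavy chain ratios by -0.79 (Myh11 to Myh9) and -0.72 (Myh11 to Myh10). In all 8 pairs the CRE libraries lay below the GFP libraries. Each had an exact permutation p of 0.1, the smallest that 3 against 3 libraries allow, and 0.1 after adjustment over the 8 pairs. Several pairs share a gene, so they are not independent. Every muscle gene of the pairs had been called lower by itself, so the common direction of the ratios is no separate result. Acta1, the muscle actin that was higher (2.45), was in no pair.

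**Figure D5:**
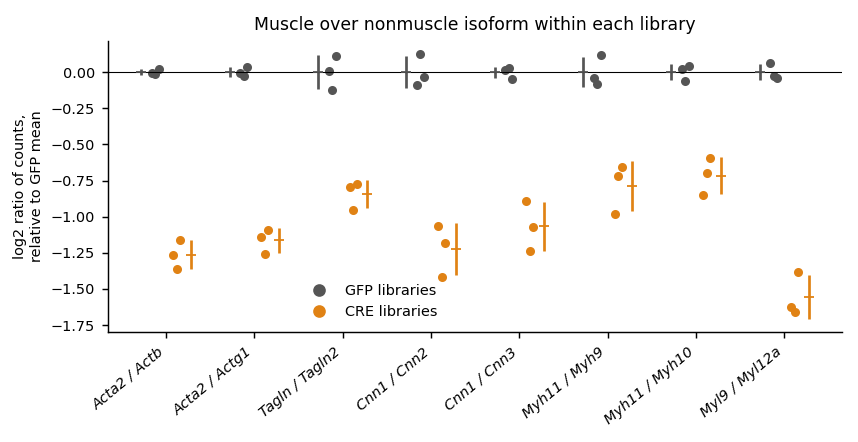
Log2 ratio of muscle to nonmuscle isoform counts in each library, relative to the mean of the GFP libraries (y axis), for 8 pairs (x axis). Points are libraries, and the bars beside them are mean and SD (n = 3). All CRE points lie below all GFP points of the same pair, with mean differences from -0.72 (Myh11 to Myh10) to -1.56 (Myl9 to Myl12a).

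The members spanned a wide range of abundance. Per length, the 5 highest members in GFP were Actg1 (1119 ± 82.7), Actb (748 ± 61.5), Cald1 (589 ± 5.18), Tpm4 (487 ± 13.8) and Tpm1 (450.1 ± 21.5 FPKM), with log2 fold changes on the TMM scale between -0.23 and -0.092. The lowest tested were Mylk (1.78 ± 0.229), Diaph3 (2.57 ± 0.447) and Synpo2 (2.60 ± 0.105 FPKM), with log2 fold changes of -0.997, 0.39 and -0.89. All members together took 1.86% to 2.02% of counts in GFP and 1.81% to 1.91% in CRE.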

How the data were processed

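RNA-seq of 6 libraries of mouse cardiac fibroblasts was analysed from a table of 22063 genes, and the titles gave groups and replicate numbers. The authors' pipeline, as their methods give it, was Trimmomatic for trimming, HISAT2 for alignment (GRCm38), HTSeq-count for counting per gene and Cufflinks for FPKM. Tool versions and the use of strand in counting are not given in the sources used here, and the labels and the methods name different RNA and library kits. The authors deposited raw counts and FPKM per library. Columns of their own comparison (log2 fold change, p-value and false discovery rate), also deposited by the authors, were not used.

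Counts were tested in R 4.3.3 with edgeR 4.0.16 (filterByExpr, minimum count 10 and minimum total 15, TMM scaling, two-sided quasi-likelihood test), with Benjamini-Hochberg adjustment over all 12862 genes tested. Calls are adjusted p-values under 0.05. Normalised values are CPM over the effective library size, and the SE is the absolute log2 fold change over the square root of F. Ratios used log2 of counts plus 0.5, shares used the FPKM deposited by the authors, and both were tested by two-sided exact permutation. Positions are from GENCODE M21 on GRCm38, and promoters from RefSeq (GRCm38.p6). Values by library are given for the actins, SRF and its cofactors, and for every member past the threshold with an absolute log2 fold change of at least 0.5. Of the lists, genes past the threshold with at least 1 are named, with all genes of the ratio pairs. Alternatives were other scalings and filters, DESeq2 1.42.0, limma 3.58.1 with voom or on log2(FPKM + 1) and log2(FPKM + 0.1), a replicate block, a threshold of 0.01 and each library left out. The members and lists were chosen with earlier results of these data known, so no count over them is independent support. The counts of 1 of the lists of actin regulators by itself are not reported here.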

Additional observations from a re-analysis of the deposited data

How the results depend on the processing

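The scale of the libraries was the choice that mattered most. Members called lower numbered 27, and 15 with library size alone, on log2(FPKM + 1) and on log2(FPKM + 0.1) alike. Of all tested genes, 25.7% were lower on the TMM scale and 16.2%, 14.9% and 14.8% under the other settings, in that order. Under those 3 settings the sign of some small log2 fold changes turned, given here in that order: Actb 0.070, 0.098 and 0.098, Actn4 0.13, 0.13 and 0.13, Tagln2 0.072, 0.086 and 0.086, Tpm1 0.052, 0.049 and 0.050, Myh9 0.095, 0.097 and 0.098, Myh10 0.025, 0.025 and 0.026, Rhoa 0.037, 0.048 and 0.048, and Mrtfb 0.10, 0.080 and 0.090. Cald1 turned with library size alone (0.039). Without single libraries, members called lower numbered 22 to 26 and higher 6 to 7. Of all tested genes in the same fits, 22.1% to 25.3% were lower and 21% to 24.6% higher. Over these fits Myh9 ranged from -0.11 to 0.0028 (the latter without GFP replicate 1) and Srf from -0.070 (without GFP replicate 3) to 0.11, with -0.0026 without CRE replicate 1. Pdlim7 was -0.027 without GFP replicate 2 and 0.098 without GFP replicate 1. The difference in the share of Tpm4 ranged from -0.54 to 0.068 points without single libraries (0.014 without GFP replicate 2), and was -0.77 points on counts. The largest adjusted p-values without 1 library were 0.064 for Actg1, 0.123 for Cald1, 0.131 for Myh10, 0.131 for Cfl2 and 0.116 for Rhoa. Myh10 also failed with DESeq2 (adjusted p = 0.0527). All 8 ratios kept their direction under the alternatives tried. Whether the replicate numbers pair the libraries could not be settled with 3 libraries per group. Deviations of same-numbered libraries correlated at 0.046, 0.180 and -0.018, and those of differently numbered libraries at -0.116 to 0.071. With the replicate block 28 members were lower and 7 higher, against 26.2% and 25.3% of all tested genes. Tpm1 was the lower gene added under the block, and the ratio of Acta2 to Actb differed by -1.26. Mylk, Synpo2 and Diaph3 rest on few counts, and Myocd could not be tested at this depth. Levels of RNA say nothing of filament content, phosphorylation or the place of MRTFs in the cell.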

Other observations

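Other regulators of actin, in 8 lists of 83 genes outside the members, were mixed. Of 80 tested, 27 were lower and 14 higher (33.8% and 17.5%, against 25.7% and 25.5% of all tested genes), with a median log2 fold change of -0.015. With library size alone, 13 were lower and 40 higher (median 0.15), against 16.2% and 42.9% of all tested genes (median 0.17), so that on this scale the lists lay close to all genes. By list, the counts also moved with the scale, and are given as lower and higher on the TMM scale and then with library size alone. Of 9 tested subunits of the Arp2/3 complex, which branches filaments, 4 were lower and 1 higher, then 1 and 4. Of 16 capping, severing and monomer-binding genes, 8 were lower and 1 higher, then 4 and 7. Of 9 WASP and WAVE genes, which switch on Arp2/3, 2 were lower and 2 higher, then 1 and 6. Of 8 other formins 1 was lower and 2 higher, then 0 and 4. Of 9 cofilin kinases and phosphatases 1 was lower and 0 higher, then 1 and 6. Of 7 myosin phosphatase genes 2 were lower and 1 higher, then 1 and 3, and of 8 other crosslinkers and membrane linkers 3 and 3, then 1 and 4. Of 3 tested regulators of MRTFs, 1 was lower and 0 higher, then 0 and 1.

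Past an absolute log2 fold change of 1 there were 2 genes in these lists. Lcp1, or L-plastin, a bundling protein of white blood cells, had 73, 82 and 101 counts in GFP and 23, 45 and 39 in CRE (log2 fold change -1.32, SE 0.23, adjusted p = 8.68e-04). The groups did not overlap, and the summed macrophage markers were also lower in CRE. Daam2, a formin, had 3, 8 and 10 counts in GFP and 18, 16 and 15 in CRE (1.15, SE 0.39, adjusted p = 0.031), which is a small number of counts. Other genes, chosen after their values were seen, were Rnd1 (0.93), a relative of Rnd3 that moved the other way, and Arhgef2 (-0.72), an exchange factor for RhoA.

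Among the cell type markers past the same size, the fibroblast genes Tcf21 (-1.80) and Lum (-1.46), the endothelial genes Tie1 (-1.36), Tek (-1.20) and Emcn (-1.15), the macrophage genes Adgre1 (-1.27) and Cd14 (-1.07) and the pericyte genes Rgs5 (-1.19) and Abcc9 (-1.08) were lower, while Cspg4 (1.03) was higher.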
